A study of Mus musculus with 8 samples.

Results

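The response of open chromatin to the TLR4 agonist KLA (Kdo2 lipid A) was measured in wild-type (WT) bone marrow-derived macrophages (BMDMs), as the difference between 2 KLA and 2 vehicle (Veh) ATAC-seq libraries, 4 of the 8 libraries of the series. All 9698 merged peaks were tested. The authors had called them on these and the RGFP966 + KLA libraries, so a peak could enter through the condition in which it was high. The cells came from C57BL/6 mice, were differentiated from bone marrow, and received Veh or KLA for 6 h after a period of serum starvation that both groups shared. Nothing in the labels ties the 2 libraries of a group to different mice or cultures. The p-values therefore measure only counting error and the spread between libraries of a group, which may be technical. The edgeR dispersion for peaks, which stands for variance beyond counting error, was small (median 9.77e-05, common 0.0052). In the main fits the spread between libraries was estimated jointly from the Veh, KLA and RGFP966 + KLA libraries of WT cells. Apart from this, the other 4 libraries, WT cells with RGFP966 (an HDAC3 inhibitor) plus KLA and NCoR f/f cells at Veh, are used only where named. NCoR f/f cells carry a floxed allele of the corepressor NCoR.

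TLR4 is the macrophage receptor for bacterial lipopolysaccharide. Its adaptors activate kinases that release NF-kB from its inhibitors, switch on AP-1 through MAP kinases, and activate interferon regulatory factors (IRFs). In macrophages these factors bind largely beside the lineage factors PU.1 and C/EBP, and much of the inducible binding lies far from promoters. ATAC-seq reads such regions as places where a transposase could insert into DNA, and a peak is named here after the gene with the nearest transcription start site (TSS), which need not be the gene it acts on.

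The sequences below are the central 200 bp of 10 called peaks on mm10, plus strand, 5′ to 3′. The first 4 are the gained peaks of Nfkb1, the gene with the most gained peaks, and 5 more come from gained peaks at other immune or multiply changed loci, chosen after their matches were seen. NF-kB is thus overrepresented here: it was in 4 of the 35 gained peaks of genes with 2 or more, and all 4 are shown. The last is a lost promoter. Capitals mark a match on either strand to NF-kB, AP-1 (TGANTCA), PU.1 (GAGGAA), C/EBP (TTGCNNAA) or IRF (GAAANNGAAA), and a window without capitals holds none of these strings.
Nfkb1 -28.6 kb, chr3:135720016-135720215: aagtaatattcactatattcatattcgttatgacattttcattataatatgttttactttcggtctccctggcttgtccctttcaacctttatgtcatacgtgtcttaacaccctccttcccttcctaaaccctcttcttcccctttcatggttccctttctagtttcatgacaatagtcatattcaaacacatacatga
Nfkb1 +19 kb, chr3:135672419-135672618: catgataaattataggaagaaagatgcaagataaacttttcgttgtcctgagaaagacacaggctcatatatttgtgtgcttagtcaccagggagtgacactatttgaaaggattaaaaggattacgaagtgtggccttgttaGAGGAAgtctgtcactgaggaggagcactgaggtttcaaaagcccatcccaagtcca
Nfkb1 +51.2 kb, chr3:135640269-135640468: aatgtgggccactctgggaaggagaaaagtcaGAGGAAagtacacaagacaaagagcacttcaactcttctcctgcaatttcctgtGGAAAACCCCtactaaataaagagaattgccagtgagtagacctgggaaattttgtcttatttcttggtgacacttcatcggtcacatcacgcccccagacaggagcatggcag
Nfkb1 +84.2 kb, chr3:135607264-135607463: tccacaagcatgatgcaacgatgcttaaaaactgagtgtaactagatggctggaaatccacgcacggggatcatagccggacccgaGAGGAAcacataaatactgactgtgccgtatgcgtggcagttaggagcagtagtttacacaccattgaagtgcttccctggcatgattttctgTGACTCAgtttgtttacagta
Il12b -9.9 kb, chr11:44390062-44390261: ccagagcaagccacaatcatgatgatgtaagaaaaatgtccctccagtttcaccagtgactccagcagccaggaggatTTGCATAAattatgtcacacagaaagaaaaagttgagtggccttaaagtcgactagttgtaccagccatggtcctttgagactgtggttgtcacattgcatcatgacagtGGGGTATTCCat
Zc3h12a +2.8 kb, chr4:125124943-125125142: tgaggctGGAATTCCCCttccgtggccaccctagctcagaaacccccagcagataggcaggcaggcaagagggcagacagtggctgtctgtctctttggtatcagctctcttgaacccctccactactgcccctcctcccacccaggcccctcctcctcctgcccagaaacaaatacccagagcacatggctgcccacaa
Bcr +60.3 kb, chr10:75121141-75121340: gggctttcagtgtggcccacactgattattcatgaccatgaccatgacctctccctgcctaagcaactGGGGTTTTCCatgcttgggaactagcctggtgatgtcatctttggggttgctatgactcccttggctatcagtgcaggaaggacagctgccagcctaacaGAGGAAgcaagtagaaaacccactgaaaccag
Flrt3 -192.2 kb, chr2:140863592-140863791: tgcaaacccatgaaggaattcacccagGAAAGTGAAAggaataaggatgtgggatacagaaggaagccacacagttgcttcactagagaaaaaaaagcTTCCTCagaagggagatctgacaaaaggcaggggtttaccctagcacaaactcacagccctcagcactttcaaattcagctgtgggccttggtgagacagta
Slco3a1 +27.0 kb, chr7:74527720-74527919: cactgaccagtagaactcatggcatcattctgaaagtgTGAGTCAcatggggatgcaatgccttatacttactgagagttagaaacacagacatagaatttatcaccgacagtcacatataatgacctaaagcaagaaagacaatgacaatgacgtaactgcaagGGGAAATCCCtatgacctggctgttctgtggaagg
Nuak1 -0.3 kb, chr10:84440663-84440862: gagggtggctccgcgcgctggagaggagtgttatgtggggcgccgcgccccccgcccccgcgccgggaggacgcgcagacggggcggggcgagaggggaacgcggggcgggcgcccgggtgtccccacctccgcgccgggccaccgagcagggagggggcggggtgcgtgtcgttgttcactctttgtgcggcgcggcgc
The Nfkb1 windows at +51.2 kb (NF-kB and PU.1), +84.2 kb (AP-1 and PU.1) and +19 kb (PU.1) lie within introns of Nfkb1, and the window at -28.6 kb, which is intergenic, has no match. The Il12b window holds NF-kB and C/EBP strings, the Zc3h12a window an NF-kB string, and the Bcr window NF-kB and PU.1 strings. The Slco3a1 window holds NF-kB and AP-1 strings, and the Flrt3 window PU.1 and IRF strings. The window of Nuak1 has 79% G and C bases and none of the strings. A match describes the letters only and is not a measured binding site.

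The 4 libraries held 116733 to 187022 tags in peaks, which was 1.40% to 2.06% of all their tags, and the median peak had 10 to 16 tags. Levels are given as tags per 100000 tags in peaks, so a level near 1 rests on 1 or 2 tags. A peak was called gained or lost at a Benjamini-Hochberg adjusted p under 0.05 and a fold change over 2 in edgeR's quasi-likelihood test. Tags carry no molecular identifiers, so intervals cover counting error only, and in a bulk sample fewer cells of a type cannot be told apart from less accessible DNA per cell. Of 8 macrophage marker genes, Cd68, Csf1r, Fcgr1 and Itgam had peaks, with a summed level of 36.4 to 38 at Veh and 30.0 to 40.1 at KLA, and the other 4 had none. None of 7 T cell and 5 B cell markers had a peak. Of 7 neutrophil markers only Camp had one, which was gained (3.10 to 4.13 at Veh and 10.3 to 11.8 at KLA), 1 of 5 fibroblast markers had one (Pdgfrb, 7.76 to 9.08 and 10.2 to 11.1), and 3 of 5 dendritic cell markers had peaks (Flt3, Xcr1 and Zbtb46, summed 21.5 to 26.4 and 17.1 to 19.7). Their part in the results was not tested.

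With KLA 320 peaks (3.30% of those tested) were gained and 168 (1.73%) were lost, and the largest groups of gained peaks with the same nearest gene were those of Nfkb1, which encodes an NF-kB subunit, and Flrt3. The gained peaks had few tags in unstimulated cells. Their median level was 1.55 and 1.65 in the Veh libraries and 9.62 and 9.42 in the KLA libraries, and 15 of the 320 had 0 tags at Veh. The lost peaks had a median level of 11.6 in both Veh libraries, and 3.21 and 3.43 in the KLA libraries, and every lost peak kept at least 1 tag at KLA. Of the gained peaks, 77 came from the authors' peak set of KLA alone, 167 from those of KLA and RGFP966 + KLA, and 74 from that of RGFP966 + KLA alone, and 0 came from that of Veh alone, while of the lost peaks 99 did. These sets were called on the same libraries and are no independent evidence. The median ratio was 4.66 for the gained peaks with tags at Veh and 3.51, Veh over KLA, for the lost ones.

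At all 488 called peaks the KLA libraries lay beyond the Veh libraries, which was also so at 25.3% of all peaks in the higher and 22.6% in the lower direction. DESeq2 called 0 peaks on the same tags, with 570 at an unadjusted p under 0.05 against 1888 in edgeR. The part of the small edgeR dispersion in this difference was not tested. The counts moved with each library: there were 100 gained and 55 lost peaks without Veh replicate 1, 128 and 80 without Veh replicate 2, 112 and 59 without KLA replicate 1, and 242 and 102 without KLA replicate 2. The balance of gained and lost peaks moved with the offsets, to 240 and 252 with loess offsets and 268 and 194 with GC offsets. With only the 4 Veh and KLA libraries in the fit, 258 peaks were gained and 137 lost.

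Changes at more than 1 peak of the same gene were sought to see which loci responded over a wide region. There were 16 genes with 2 or more gained peaks and 10 with 2 or more lost peaks. The 301 genes with a gained peak mostly had just 1, and 1785 of all 6841 genes had 2 or more peaks at all. Genes with many peaks had more chances to be called. A gained peak was seen at 1.98% of genes with 1 peak, 8.10% with 2, 15.8% with 3 or 4 and 36% with 5 or more, and a lost peak at 0.969%, 4.65%, 9.29% and 10.7%. The share of single peaks gained was 1.98%, 4.29%, 5.34% and 5.70% in these classes.

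The 35 gained peaks of the 16 genes all lay distal, farther than 2 kb from the TSS, and spanned a median of 52.9 kb per gene (3.02 to 149 kb). Of all 320 gained peaks 268 were distal, and of the 54 peaks of these genes just 4 were promoter peaks, so the position was largely given. At 6 of the genes every peak was gained, but each of these had just 2 peaks, so the choice of genes fixed this. The 19 other peaks of the 16 genes had a median log2 fold change of 0.39, and 11 of them were above 0. Among these were 4 promoter peaks, with a median of 1.11. The number of such genes fell to 2 (Flrt3 and Nfkb1) without either Veh replicate, to 5 without KLA replicate 1 (Alpk2, Bcr, Gab1, Il12a and Nfkb1), and to 9 without KLA replicate 2.

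**Figure D1:**
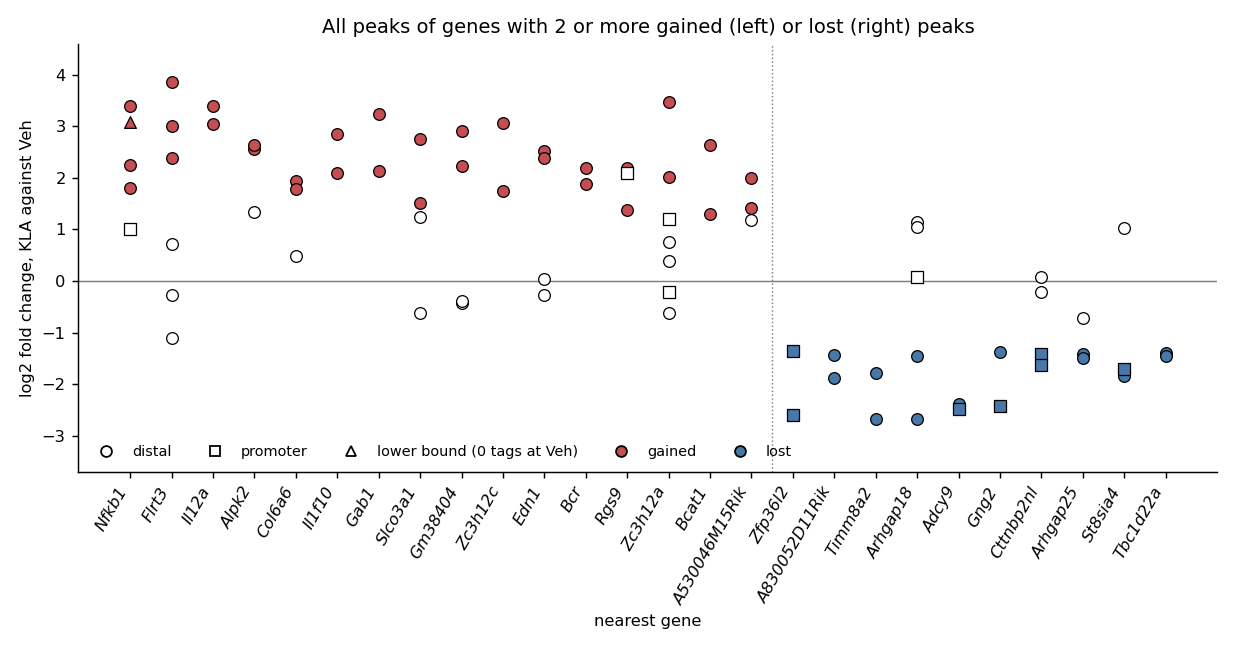
Log2 fold change of KLA against Veh (y axis) for every peak of the 16 genes with 2 or more gained peaks (left of the dotted line) and the 10 with 2 or more lost peaks (right). Circles are distal and squares promoter peaks, red is gained, blue is lost and white was not called. The triangle, labelled lower bound, is KLA over a floor of 3 Veh tags, without the counting error of the KLA tags. Most changes are fitted by edgeR, and those of peaks with 1 to 3 Veh tags are imprecise. All 35 gained peaks are distal, beside 268 of all 320 gained peaks, and 7 of the 20 lost peaks are promoters, beside 65 of all 168 lost peaks.

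Nfkb1 encodes p105, which is processed to the p50 subunit of NF-kB. It had 4 gained peaks of its 5. The peak at +51.2 kb had 0 tags in both Veh libraries and levels of 9.62 and 11.1 in the KLA libraries (adjusted p = 8.99e-05). Its pooled KLA level was 8.51 times a floor of 3 tags over the Veh libraries, without the counting error of the KLA tags. The counting interval of Veh over KLA ran from 0 to 0.154. The peak at +19 kb stood at 0.776 and 0.826 at Veh and at 6.95 and 12.8 at KLA, a ratio of 11.5 with a counting interval of 2.91 to 99.8 (adjusted p = 0.00112). The KLA libraries lay above the Veh libraries at both peaks, which was so at all 320 gained peaks.

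Upstream of Nfkb1, at -28.6 kb (negative distances lie upstream of the TSS), levels were 2.33 and 0.826 at Veh and 5.88 and 11.1 at KLA (log2 fold change 2.25 ± 0.61 SE, adjusted p = 0.0178). The peak at +84.2 kb had 1.55 and 3.30 at Veh and 8.56 and 8.57 at KLA (1.80 ± 0.55, adjusted p = 0.0418). The Nfkb1 promoter peak, with 2.33 and 6.61 at Veh and 9.09 and 8.57 at KLA, did not pass the test (1.00 ± 0.49, adjusted p = 0.24). Summed over the 5 peaks, Nfkb1 stood at 6.98 and 11.6 at Veh and at 40.1 and 52.3 at KLA, a log2 fold change of 2.28 ± 0.28 with an adjusted p of 1.02e-10, and of 0.000214 in DESeq2. It was the smallest adjusted p of all genes in both tools.

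**Figure D2:**
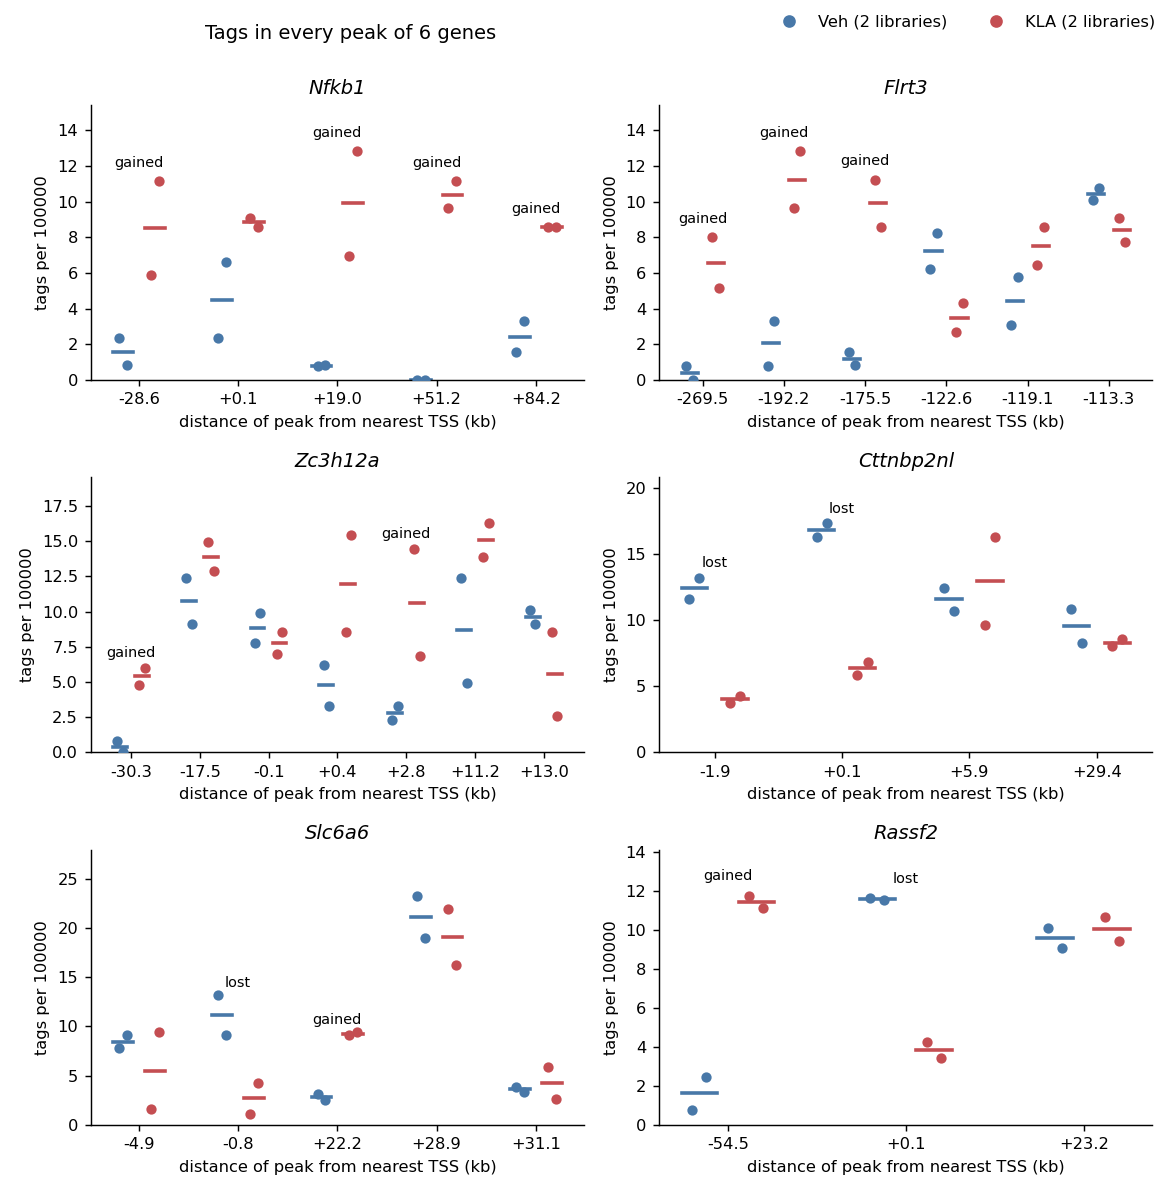
Tags per 100000 tags in peaks (y axis) in each Veh (blue) and KLA (red) library at every peak of 6 genes, placed by the distance of the peak from the nearest TSS in kb (x axis, categories). Points are libraries and bars are means of 2 libraries. Nfkb1, Flrt3 and Zc3h12a hold gained peaks, Cttnbp2nl holds lost peaks, and Slc6a6 and Rassf2 hold 1 of each.

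The cytokine and RNA decay genes among the 16 were Il12a, Il1f10, Edn1, Zc3h12a and Zc3h12c. Il12a, which encodes the p35 chain of IL-12, had 2 peaks and both were gained. Its peak at -57.9 kb rose from 2.33 and 1.65 at Veh to 20.9 and 11.1 at KLA (3.05 ± 0.52, adjusted p = 0.000164), and its intronic peak at +2.2 kb from 0 and 0.826 to 3.74 and 6.85 (ratio 12.3, counting interval 1.90 to 520, adjusted p = 0.0177). The intronic peak rests on a single Veh tag. Il1f10, an IL-1 family member, had gained peaks at +15.6 kb (2.33 and 2.48 at Veh, 10.2 and 11.1 at KLA, 2.10 ± 0.52, adjusted p = 0.00919) and +20.6 kb (ratio 7.68, interval 2.37 to 39.5, adjusted p = 0.00285). Edn1, the vasoconstrictor peptide endothelin 1, had gained peaks on either side, at -56.9 kb (0.776 and 2.48 at Veh, 8.02 and 12 at KLA, 2.52 ± 0.61, adjusted p = 0.00808) and at +91.4 kb (ratio 5.49, interval 1.63 to 28.8, adjusted p = 0.0298).

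Zc3h12a encodes Regnase-1, a ribonuclease that degrades inflammatory mRNAs, and Zc3h12c is its relative. Zc3h12a had 7 peaks, of which those at +2.8 kb (2.33 and 3.30 at Veh, 14.4 and 6.85 at KLA, 2.01 ± 0.53, adjusted p = 0.0145) and -30.3 kb (0.776 and 0 at Veh, 4.81 and 6.00 at KLA, ratio 13.2, interval 2.05 to 552, adjusted p = 0.0131) were gained. Both peaks of Zc3h12c were gained, at +13.7 kb (4.65 and 1.65 at Veh, 10.7 and 11.1 at KLA, 1.74 ± 0.50, adjusted p = 0.029) and -121.2 kb (ratio 9.06, interval 2.23 to 79.4, adjusted p = 0.0055). Bulk ATAC-seq shows the loci as open and says nothing of their RNA.

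Flrt3, a cell adhesion protein, is the nearest gene of 3 gained peaks at -175.5, -192.2 and -269.5 kb, all within introns of another gene, Macrod2. The middle one rose from 0.776 and 3.30 at Veh to 9.62 and 12.8 at KLA (2.40 ± 0.56, adjusted p = 0.0055). Gab1, a docking adaptor of receptor tyrosine kinases, had peaks at -38.8 kb (3.88 and 1.65 at Veh, 10.2 and 16.3 at KLA, 2.13 ± 0.51, adjusted p = 0.0077) and -63.4 kb (ratio 10.3, interval 2.57 to 89.6). Bcr, a regulator of small GTPases, had peaks at -5.0 kb (2.33 and 2.48 at Veh, 8.56 and 15.4 at KLA, adjusted p = 0.0088) and +60.3 kb (3.10 and 4.13 at Veh, 12.3 and 15.4 at KLA, adjusted p = 0.0106).

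Rgs9, which speeds GTP hydrolysis by G proteins, had gained peaks at +51.1 kb (8.53 and 8.26 at Veh, 23 and 20.6 at KLA, 1.38 ± 0.34) and +28.4 kb (1.55 and 1.65 at Veh, 7.49 and 7.71 at KLA, 2.19 ± 0.63). Slco3a1, an organic anion transporter, had them at +27.0 kb (0 and 3.30 at Veh, 8.56 and 15.4 at KLA, 2.75 ± 0.62) and +57.4 kb (4.65 and 3.30 at Veh, 12.3 and 10.3 at KLA, 1.51 ± 0.46). Alpk2, a kinase of the alpha kinase family, rose at +65.1 kb (2.33 and 1.65 at Veh, 11.8 and 12.8 at KLA, 2.56 ± 0.54) and +17.6 kb (ratio 6.59, interval 2.00 to 34.2). These genes had adjusted p-values between 0.0023 and 0.0396.

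Col6a6, a collagen chain, had gained peaks at +44.8 kb (10.1 and 0.826 at Veh, 23.5 and 18.8 at KLA, 1.94 ± 0.41) and +29.4 kb (2.33 and 3.30 at Veh, 5.88 and 16.3 at KLA, 1.79 ± 0.56), where libraries of a condition differed widely. The uncharacterised Gm38404 had them at +13.9 kb (1.55 and 3.30 at Veh, 12.3 and 10.3 at KLA, 2.23 ± 0.55) and -43.9 kb (ratio 7.96, interval 2.47 to 40.8). Bcat1 and A530046M15Rik complete the 16 genes and were named after their values were seen.

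The 10 genes with 2 or more lost peaks had 7 of their 20 lost peaks at promoters, beside 38.7% of all lost peaks, and a median span of 16.6 kb (1.10 to 45.7 kb). The difference from the gained genes in position was not tested. At 6 of these genes every peak was lost, but each of the 6 had just 2 peaks, so the choice of genes fixed this. Of the 7 other peaks of the 10 genes 2 were below 0, with a median of 0.08. The number of such genes was 0 without Veh replicate 1 or without KLA replicate 1, where 55 and 59 peaks were lost, 4 without Veh replicate 2 and 5 without KLA replicate 2.

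Zfp36l2 encodes an mRNA decay factor that binds AU-rich elements, and both its peaks are at the promoter. At +45 bp levels fell from 11.6 and 9.08 at Veh to 2.67 and 0 at KLA (-2.60 ± 0.57, adjusted p = 0.0032), and at -718 bp from 23.3 and 14 to 6.95 and 7.71 (-1.37 ± 0.36, adjusted p = 0.0148). Adcy9, an adenylyl cyclase, was lost at its promoter (6.98 and 12.4 at Veh, 1.60 and 1.71 at KLA, -2.49 ± 0.59, adjusted p = 0.00637) and at +45.4 kb (7.76 and 6.61 at Veh, 1.07 and 1.71 at KLA, -2.38 ± 0.56, adjusted p = 0.0157). Gng2, a G protein gamma subunit, was lost at its promoter (9.31 and 9.08 at Veh, 0.535 and 3.43 at KLA, -2.43 ± 0.59, adjusted p = 0.00872) and at -8.0 kb (20.2 and 14 at Veh, 7.49 and 5.14 at KLA, -1.37 ± 0.37, adjusted p = 0.0173). At each of these peaks both KLA libraries lay below both Veh libraries, which was so at all 168 lost peaks.

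Cttnbp2nl, which encodes a component of a phosphatase complex, was lost at 2 promoter peaks, at +0.1 kb (16.3 and 17.3 at Veh, 5.88 and 6.85 at KLA, -1.41 ± 0.37) and -1.9 kb (11.6 and 13.2 at Veh, 3.74 and 4.28 at KLA, -1.63 ± 0.45). Arhgap18, a GTPase activator, was lost at +27.2 kb (15.5 and 11.6 at Veh, 4.81 and 5.14 at KLA, -1.45 ± 0.42) and +64.2 kb (9.31 and 8.26 at Veh, 2.14 and 0 at KLA, -2.67 ± 0.60), while its 3 other peaks were not called.

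Some lost pairs lay inside a gene other than their nearest. The peaks of A830052D11Rik at -29.2 kb (22.5 and 14.9 at Veh, 6.42 and 7.71 at KLA, -1.43 ± 0.37) and -53.6 kb (19.4 and 12.4 at Veh, 4.28 and 4.28 at KLA, -1.88 ± 0.42) are in introns of Bin1, a membrane-shaping protein. Those of Timm8a2 at -25.0 kb (18.6 and 13.2 at Veh, 4.81 and 4.28 at KLA, -1.78 ± 0.41) and -21.0 kb (9.31 and 8.26 at Veh, 1.60 and 0.857 at KLA, -2.67 ± 0.59) are in introns of Ubac2. Over all called peaks, 125 of the 166 intronic gained peaks and 54 of the 70 intronic lost peaks lay in introns of their own nearest gene (75.3% and 77.1%), beside 74.8% of all intronic peaks. Arhgap25, St8sia4 and Tbc1d22a complete the 10 genes and were named after their values were seen.

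A further 6 genes had a gained and a lost peak. Rassf2, a Ras-association tumour suppressor, was lost at its promoter (11.6 and 11.6 at Veh, 4.28 and 3.43 at KLA, -1.53 ± 0.46, adjusted p = 0.0375) and gained at -54.5 kb, in an intron of Slc23a2 (0.776 and 2.48 at Veh, 11.8 and 11.1 at KLA, 2.79 ± 0.58, adjusted p = 0.0022). Slc6a6, the taurine transporter, was lost at its promoter (13.2 and 9.08 at Veh, 1.07 and 4.28 at KLA, -2.24 ± 0.52, adjusted p = 0.0055) and gained in an intron at +22.2 kb (3.10 and 2.48 at Veh, 9.09 and 9.42 at KLA, 1.69 ± 0.53, adjusted p = 0.0453). Marcks, an actin-linked substrate of protein kinase C, was lost at -2.3 kb (23.3 and 23.9 at Veh, 9.09 and 15.4 at KLA, -1.02 ± 0.32) and gained at -199.6 kb (7.76 and 4.95 at Veh, 18.2 and 15.4 at KLA, 1.41 ± 0.38). At these 3 genes the gained peak was the one farther from the TSS.

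Nfatc2, a calcium-responsive transcription factor, was gained at +50.3 kb (4.65 and 2.48 at Veh, 15.0 and 5.14 at KLA, 1.62 ± 0.51) and lost at +7.2 kb (13.2 and 5.78 at Veh, 3.74 and 0 at KLA, -2.02 ± 0.57). 1600002D24Rik was gained at +10.8 kb (2.26 ± 0.58) and lost at -2.6 kb (-1.61 ± 0.47). Dnah5, a ciliary dynein, had a gained peak at +173.8 kb with 0 tags at Veh (KLA at 2.47 times a floor of 3 Veh tags, adjusted p = 0.0278) and a lost one at -44.7 kb (-2.35 ± 0.55, adjusted p = 0.0057).

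Promoter and distal peaks were then compared as classes. Gains were mostly distal: 268 of 4716 distal peaks (5.68%, Wilson 95% interval 5.06% to 6.38%) and 52 of 4913 promoter peaks (1.06%, 0.808% to 1.39%) were gained. Losses were nearer to even, at 103 distal (2.18%, 1.80% to 2.64%) and 65 promoter peaks (1.32%, 1.04% to 1.68%). This balance moved with the offsets: 137 distal and 57 promoter peaks were lost with GC offsets, and 160 and 92 with loess offsets. The gained counts were then 213 distal and 55 promoter peaks with GC offsets, and 198 and 42 with loess offsets. Promoters made up 16.3% of the gained, 38.7% of the lost and 51.0% of all peaks. The median gained peak lay 24390 bp from a TSS, the median lost peak 8394 bp, and the median of all peaks 1550 bp. Introns held 51.9% of the gained peaks and intergenic DNA 35.9%, against 26.2% and 24.6% of all peaks.

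The whole distributions differed as the calls did, with a median log2 fold change of 0.13 at distal and -0.05 at promoter peaks. The promoter median was 0.01 with GC offsets, where the distal one was 0.06, and -0.12 and 0.07 with library sizes from all tags. Median GC content was 65.5% at promoter and 49% at distal peaks, and its part was not tested beyond these offsets. Promoter peaks also held more tags, and calls were rarer at deeper peaks. Under a mean of 10 tags per library 2.27% of promoter and 7.57% of distal peaks were gained, from 10 to 20 tags 0.909% and 4.24%, and from 20 to 40 tags 0.0967% and 1.95%, so the distal share was higher at each of these depths. Without a single library the gained counts were 18, 14, 16 and 38 promoter and 82, 114, 96 and 204 distal peaks (leaving out Veh replicate 1, Veh replicate 2, KLA replicate 1 and KLA replicate 2), and the lost ones 23, 32, 27 and 45 promoter and 32, 48, 32 and 57 distal peaks.

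**Figure D3:**
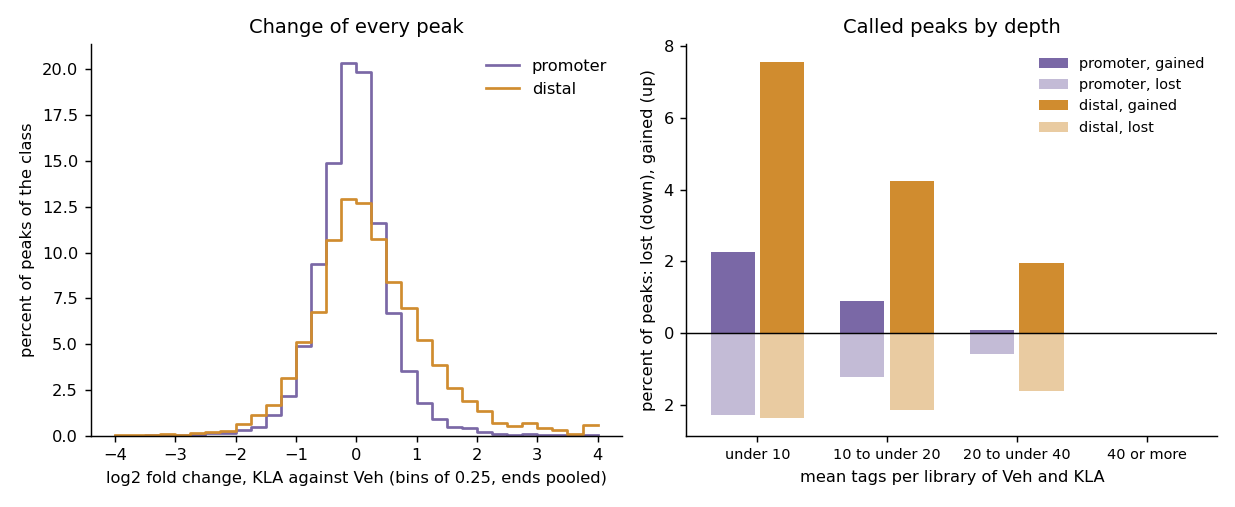
Left, share of promoter (purple) and distal (orange) peaks in each bin of the log2 fold change of KLA against Veh. Right, percent of peaks gained (up) and lost (down, pale) by mean tags per library. The distal curve has a heavier right side, and the gained share of distal peaks is above that of promoters up to 40 tags, for example 7.57% against 2.27% under 10 tags.

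The gained promoters with the smallest adjusted p were those of Snapc2, Il15, Gramd1a, Socs1 and Agrn. Snapc2, a subunit of the complex that starts small nuclear RNA transcription, had 0 tags at Veh and 9.62 and 6.00 at KLA (6.86 times a floor of 3 Veh tags, adjusted p = 0.000152). Il15, a cytokine for NK and memory T cells, rose from 1.55 and 2.48 to 15.5 and 13.7 (2.84 ± 0.53, adjusted p = 0.000509). Socs1, the feedback inhibitor of JAK kinases, rose from 5.43 and 5.78 to 17.6 and 24 (1.83 ± 0.38, adjusted p = 0.00219). Gramd1a, a cholesterol transfer protein, rose from 3.10 and 4.95 to 19.8 and 17.1 (2.21 ± 0.42), and Agrn, the proteoglycan agrin, from 6.98 and 5.78 to 20.9 and 22.3 (1.73 ± 0.36). In all 5 the KLA libraries were above the Veh libraries, as the choice of peaks required.

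The lost promoters with the smallest adjusted p were those of Jun, Bhlhe40, Nuak1, Sec11c and Igsf8. The peak at the promoter of Jun, an AP-1 subunit and immediate early gene, fell from 36.4 and 21.5 at Veh to 6.42 and 9.42 at KLA (-1.93 ± 0.34, adjusted p = 0.000213). Bhlhe40, a basic helix-loop-helix repressor, fell from 14 and 14.9 to 2.14 and 1.71 (-2.82 ± 0.50, adjusted p = 0.000323). Nuak1, an AMPK-related kinase, went from 7.76 and 13.2 to 1.07 and 0.857, a Veh over KLA ratio of 10.5 (counting interval 3.23 to 54.3, adjusted p = 0.000358). Sec11c, a signal peptidase subunit, fell from 14 and 15.7 to 3.74 and 1.71 (-2.29 ± 0.47), and Igsf8, an immunoglobulin superfamily membrane protein, from 13.2 and 5.78 to 1.60 and 0.857 (-2.79 ± 0.59).

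The gained distal peaks with the smallest adjusted p, all at 2.95e-05, were those nearest to Rbbp8, Cp, Pole4, Mtmr7 and Itga9. Cp, the copper-carrying ferroxidase ceruloplasmin and 1 of the study's example loci, rose at -2.9 kb from 0.776 and 1.65 to 17.6 and 19.7 (ratio 15.4, counting interval 5.0 to 76.8). Rbbp8, a DNA end resection factor, rose at +70.8 kb from 0.776 and 0.826 to 16 and 15.4 (ratio 19.8, 5.18 to 168). Itga9, an integrin alpha chain, rose at -41.8 kb from 2.33 and 3.30 to 21.4 and 24.8 (2.99 ± 0.43), and Mtmr7, a lipid phosphatase, at +39.4 kb from 3.10 and 1.65 to 21.4 and 19.7 (3.07 ± 0.46). Pole4, a DNA polymerase epsilon subunit, had 0 tags at Veh and 12.8 and 10.3 at KLA at +12.6 kb (9.88 times a floor of 3 Veh tags).

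The lost distal peaks with the smallest adjusted p lay at St6gal1, Ank2, Vsir, 1700027F06Rik and Adam22. St6gal1, a sialyltransferase, went at -10.4 kb from 11.6 and 14.9 to 1.60 and 0 (Veh over KLA ratio 13.4, interval 4.19 to 68.1, adjusted p = 8.99e-05). Vsir, which encodes the immune checkpoint VISTA, went at +15.5 kb from 9.31 and 10.7 to 0 and 1.71 (ratio 15.2, 3.79 to 132, adjusted p = 0.000285). Ank2, a membrane-cytoskeleton adaptor, fell at +53.6 kb from 22.5 and 22.3 to 5.88 and 3.43 (-2.17 ± 0.38), and Adam22, a catalytically inactive metalloprotease relative, at +10.7 kb from 17.1 and 21.5 to 3.21 and 6.00 (-2.14 ± 0.40).

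Calls at the promoter were then read beside those at the distal peaks of the same gene, with the class shares given above as background (1.06% of promoter and 5.68% of distal peaks gained, 1.32% and 2.18% lost). All are edgeR calls, since DESeq2 called 0 peaks anywhere and adds nothing here. The 249 genes with a gained distal peak had 90 promoter peaks at 82 genes, of which edgeR called 0 gained and 2 lost, with 9 higher and 5 lower at an unadjusted p under 0.05. Their median log2 fold change was -0.00, beside -0.05 over all promoter peaks. The 52 genes with a gained promoter had 29 distal peaks at 19 genes, of which edgeR called 0 in either direction, with 2 higher and 2 lower at an unadjusted p under 0.05 and a median of 0.09 beside 0.13 over all distal peaks. The 63 genes with a lost promoter had 48 distal peaks, with 2 gained, 3 lost and a median of -0.19. The 98 genes with a lost distal peak had 37 promoter peaks, with 3 lost and a median of -0.11.

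The difference of distal and promoter change was tested directly, in 1 edgeR model per gene of summed distal and summed promoter tags, at 956 genes with both. The distal change was above the promoter change at 27 genes (2.82%) and below it at 12 (1.26%), with a median difference of 0.24. Of the 27, the distal mean rose and the promoter mean fell at 22. Selection by a higher distal change favours this pattern, and its share over all 956 genes was not counted. Falls of any size were included, such as a promoter log2 ratio of -0.09 at Fut8. These counts were 18 and 11 without Veh replicate 1, 14 and 7 without Veh replicate 2, and 0 and 0 without either KLA replicate, where 146 and 175 genes were at an unadjusted p under 0.05.

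The genes with a higher distal change were led by Fut8, Prrc2c, Pole4, Rassf2 and Nuak1. At Fut8, the core fucosyltransferase, the promoter stood at 21.7 and 20.6 at Veh and 18.2 and 21.4 at KLA, while the distal tags went from 5.43 and 3.30 to 22.5 and 18.8 (difference 2.36 ± 0.49, adjusted p = 0.0126). At Nuak1 the distal tags stood at 23.3 and 30.6 at Veh and 24.6 and 27.4 at KLA beside its lost promoter (3.23 ± 0.65, adjusted p = 0.0126). At Prrc2c, an RNA-binding protein of stress granules, the promoter stood at 8.53 and 11.6 at Veh and 4.81 and 8.57 at KLA, and the distal tags went from 4.65 and 3.30 to 17.1 and 18.8 (2.80 ± 0.58, adjusted p = 0.0126). For Rassf2 the difference was 2.49 ± 0.51 (adjusted p = 0.0126), and for Pole4 the promoter stood at 8.53 and 12.4 at Veh and 10.2 and 14.6 at KLA (adjusted p = 0.0126). Fut8, Prrc2c and Pole4 thus differed mainly in their distal tags, Nuak1 in its promoter tags, and Rassf2 in both.

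Among the 12 genes with a lower distal change, those with a gained promoter peak included Il15, Socs1, Socs3 and Adora2a. At Il15 the distal tags stood at 18.6 and 13.2 at Veh and 19.8 and 15.4 at KLA beside the gained promoter (-2.66 ± 0.60, adjusted p = 0.0181). At Tbk1, the kinase that activates IRF3, the promoter tags went from 9.31 and 6.61 to 22.5 and 15.4 and the distal tags from 40.3 and 32.2 to 29.9 and 21.4 (-1.74 ± 0.40, adjusted p = 0.0181). At Socs1 the distal tags stood at 9.31 and 13.2 at Veh and 9.62 and 6.85 at KLA (-2.21 ± 0.54, adjusted p = 0.0217). Socs3, an inhibitor of IL-6 family signalling, had -2.39 ± 0.63 (adjusted p = 0.0306) and Adora2a, the adenosine A2A receptor, -2.71 ± 0.71 (adjusted p = 0.0306), both named after their values were seen, as was Socs1. At Gnai2, an inhibitory G protein subunit, the promoter stood at 14 and 21.5 at Veh and 18.7 and 18.8 at KLA, while the distal tags went from 10.9 and 9.08 to 0.535 and 1.71 (-3.33 ± 0.72, adjusted p = 0.0146).

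The remaining named genes were Vcan, the matrix proteoglycan versican (-2.48 ± 0.58, adjusted p = 0.0181), whose promoter went from 0.776 and 4.13 to 10.7 and 8.57, and 1110034G24Rik (-4.02 ± 0.71, adjusted p = 0.0103), whose distal tags went from 20.9 and 8.26 to 1.07 and 3.43.

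**Figure D4:**
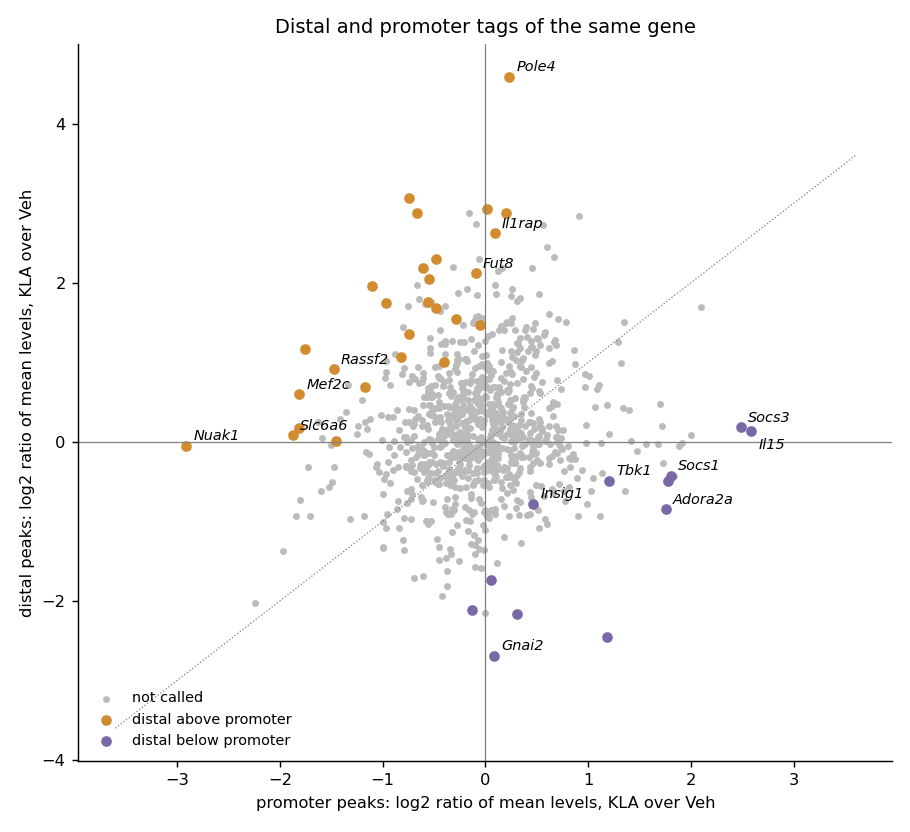
Log2 ratio of mean levels, KLA over Veh with 0.5 added to each mean, of the summed promoter peaks (x axis) and the summed distal peaks (y axis) of 956 genes. Orange marks the 27 genes whose distal change was above the promoter change, purple the 12 below it, and the dotted line is equality. Most orange genes lie left of 0 on the x axis, and Socs1, Socs3, Il15, Tbk1 and Adora2a lie to the right with distal ratios near or below 0. Selection by the difference favours both positions.

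Gene lists by function were compared with the background over all 9628 peaks with a gene, of which 3.32% were gained and 1.74% lost, with a median log2 fold change of 0.02. The lists with the highest gained shares were NF-kB subunits and inhibitors, interferon-stimulated genes, inflammatory cytokines and feedback regulators. Of 20 peaks at NF-kB genes, 5 were gained and the median was 0.78. Besides the 4 at Nfkb1, the promoter of Nfkbiz, an atypical nuclear inhibitor of NF-kB, rose from 1.55 and 4.13 to 7.49 and 12.8 (1.74 ± 0.55, adjusted p = 0.0469). The gained count of this list thus rests mainly on Nfkb1.

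Of 16 peaks at interferon-stimulated genes 3 were gained, with a median of 1.10. Gbp2, a guanylate-binding GTPase, rose at its promoter from 1.55 and 1.65 to 9.09 and 6.85 (2.31 ± 0.60, adjusted p = 0.0143), and Isg20, an exonuclease, from 1.55 and 0.826 to 9.09 and 6.00 (ratio 6.59, interval 2.00 to 34.2, adjusted p = 0.00781). Parp14, an ADP-ribosyltransferase, rose at +27.2 kb from 0.776 and 2.48 to 10.7 and 7.71 (2.52 ± 0.61, adjusted p = 0.00757). Of the 37 peaks of inflammatory cytokines and receptors, 5 were gained, with a median of 0.17. These were the 2 of Il12a, the Il15 promoter, Il12b and Il1rap.

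Il12b, which encodes the p40 chain shared by IL-12 and IL-23, rose at -9.9 kb from 1.55 and 0.826 to 16 and 10.3 (ratio 11.5, interval 3.68 to 58.1, adjusted p = 0.00021), and its window is among the sequences above. Il1rap, the accessory chain of the IL-1 receptor, rose at +44.5 kb from 0.776 and 0.826 to 6.42 and 8.57 (ratio 9.06, 2.23 to 79.4, adjusted p = 0.00781). The genes of both IL-12 chains thus had a gained distal peak.

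The list of feedback phosphatases, SOCS proteins and mRNA decay factors had 63 peaks, of which 7 were gained and 3 lost, with a median of 0.06 that fell below 0 with library sizes from all tags. The gained ones lay at Socs1, Socs3, Zc3h12a, Zc3h12c and Tnip1, and the lost ones at Zfp36l2 and Dusp6. The Socs3 promoter rose from 2.33 and 1.65 to 8.02 and 18.8 (2.56 ± 0.57, adjusted p = 0.00389). Tnip1, which restrains NF-kB with A20, rose at +26.7 kb from 4.65 and 3.30 to 9.62 and 16.3 (1.59 ± 0.47, adjusted p = 0.0328). Dusp6, a phosphatase of ERK, fell at +5.7 kb from 8.53 and 10.7 to 2.67 and 3.43 (-1.67 ± 0.49, adjusted p = 0.0328).

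The chemokine list had 12 peaks, with 1 gained, at a receptor gene, and 1 lost, at a chemokine gene. Ccrl2, an atypical chemokine receptor, rose at its promoter from 0 and 0.826 to 5.35 and 4.28 (ratio 12.3, interval 1.90 to 520, adjusted p = 0.0195), while the promoter peak of Ccl2, the monocyte chemoattractant, fell from 24 and 23.9 to 10.7 and 6.00 (-1.43 ± 0.33, adjusted p = 0.00496). AP-1 and related factors had 30 peaks with 1 lost, at Jun, and 1 gained, at Bach1, a heme-sensing repressor, which rose at +26 kb from 1.55 and 0.826 to 10.2 and 11.1 (ratio 8.78, interval 2.75 to 44.8, adjusted p = 0.00185). Their median was -0.09 and turned to 0.01 with GC offsets. The chemokine median was 0.40, and 0.20 with loess or GC offsets.

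Macrophage lineage factors had 73 peaks with a median of -0.23. Their 3 lost peaks, at Bhlhe40, Klf10 and Mef2c, were all promoters, and the 2 gained, at Maf and Runx2, were distal. Klf10, a zinc finger factor induced by TGF-beta, fell from 33.3 and 23.9 to 10.2 and 13.7 (-1.31 ± 0.30, adjusted p = 0.00496). Mef2c, a MADS box factor, fell at -1.5 kb from 10.9 and 15.7 to 4.28 and 2.57 (-1.84 ± 0.45, adjusted p = 0.00895). Maf, a bZIP factor of resident macrophages, had 0 tags at Veh and 6.95 and 10.3 at KLA at +308.7 kb (6.86 times a floor of 3 Veh tags, adjusted p = 0.000358).

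Lysosome and phagocytosis genes had 38 peaks with a median of -0.39 and 3 lost peaks. Hexa, a lysosomal hexosaminidase, fell at +5.3 kb from 19.4 and 16.5 to 4.81 and 8.57 (-1.51 ± 0.37, adjusted p = 0.00821). Axl, a receptor for apoptotic cells, fell at +11.8 kb from 13.2 and 11.6 to 4.28 and 3.43 (-1.63 ± 0.47, adjusted p = 0.0279), and Ctsh, a cathepsin, at -20.2 kb from 15.5 and 13.2 to 4.28 and 7.71 (-1.35 ± 0.40, adjusted p = 0.0335). The list had 1 peak higher and 9 lower at an unadjusted p under 0.05, beside 1085 higher and 803 lower of all 9628 peaks with a gene.

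The list of adhesion, integrin and guanine exchange genes had 71 peaks, 5 gained and 3 lost, with a median of 0.25. Arhgef3, a guanine nucleotide exchange factor, rose at +14.9 kb from 1.55 and 0.826 to 11.8 and 8.57 (ratio 8.78, interval 2.75 to 44.8), and Itgb8, an integrin chain that activates TGF-beta, at +74.0 kb from 0.776 and 3.30 to 10.2 and 8.57 (2.21 ± 0.58). Itga5, a fibronectin receptor chain, rose at -3.9 kb from 10.1 and 10.7 to 25.1 and 18.8 (1.12 ± 0.32), and Arhgap24, a GTPase activator, at its promoter from 4.65 and 3.30 to 13.4 and 11.1 (1.63 ± 0.45). The fifth was the peak of Marcks. Among G protein coupled receptors, with 33 peaks, Fpr1, which senses formyl peptides, rose at its promoter from 0.776 and 0.826 to 6.42 and 8.57 (ratio 9.06, interval 2.23 to 79.4), and Adora2a from 2.33 and 4.13 to 13.9 and 10.3 (1.94 ± 0.48). Cxcr4, a homing receptor, fell at -112.9 kb from 14 and 11.6 to 4.81 and 2.57 (-1.68 ± 0.45).

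Single peaks were called in 4 more lists. Insig1, which retains SREBP in the endoplasmic reticulum, fell at -34.1 kb from 17.8 and 21.5 to 4.81 and 7.71 (-1.71 ± 0.37, adjusted p = 0.00277), the only called peak of 30 at LXR and SREBP genes. Ptges, the inducible prostaglandin E synthase, rose at -22.0 kb from 0 and 1.65 to 4.81 and 9.42 (ratio 8.23, interval 2.00 to 72.6), the only one of 26 at prostaglandin and nitric oxide genes. Egln3, an oxygen sensor, rose at its promoter from 2.33 and 2.48 to 9.62 and 8.57 (1.91 ± 0.55), the only one of 28 at glycolysis and hypoxia genes. Of 31 peaks at survival genes, Gadd45b was gained at +33.7 kb (2.33 and 2.48 at Veh, 10.7 and 8.57 at KLA, 2.01 ± 0.54) and its relative Gadd45a, a stress-induced gene, lost at its promoter (14.7 and 17.3 at Veh, 5.88 and 6.00 at KLA, -1.42 ± 0.38).

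In 3 lists edgeR called 0 peaks, beside 3.32% gained and 1.74% lost over all peaks with a gene. At 14 to 27 peaks a list, 0 calls is not far from these shares. DESeq2 called 0 peaks in any list. The TLR4 receptor and its adaptors had 27 peaks with a median of 0.28, of which 6 were higher and 2 lower at an unadjusted p under 0.05 in edgeR. IRF and STAT factors had 14 peaks with a median of -0.33, of which 1 was higher and 0 lower, and the genes of the NCoR, HDAC3 and PGC1b complexes had 15 with a median of -0.38, of which 0 were higher and 2 lower. In the sums per gene, called at a fold change over 1.5, Tlr4, whose only peak stood at 22.5 and 22.3 at Veh and 12.3 and 9.42 at KLA, was called down (-1.0 ± 0.31, adjusted p = 0.0389), and so was Tbl1xr1 of the NCoR complex (23.3 and 21.5 at Veh, 10.7 and 10.3 at KLA, -1.08 ± 0.32, adjusted p = 0.0242), both named after their values were seen.

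**Figure D5:**
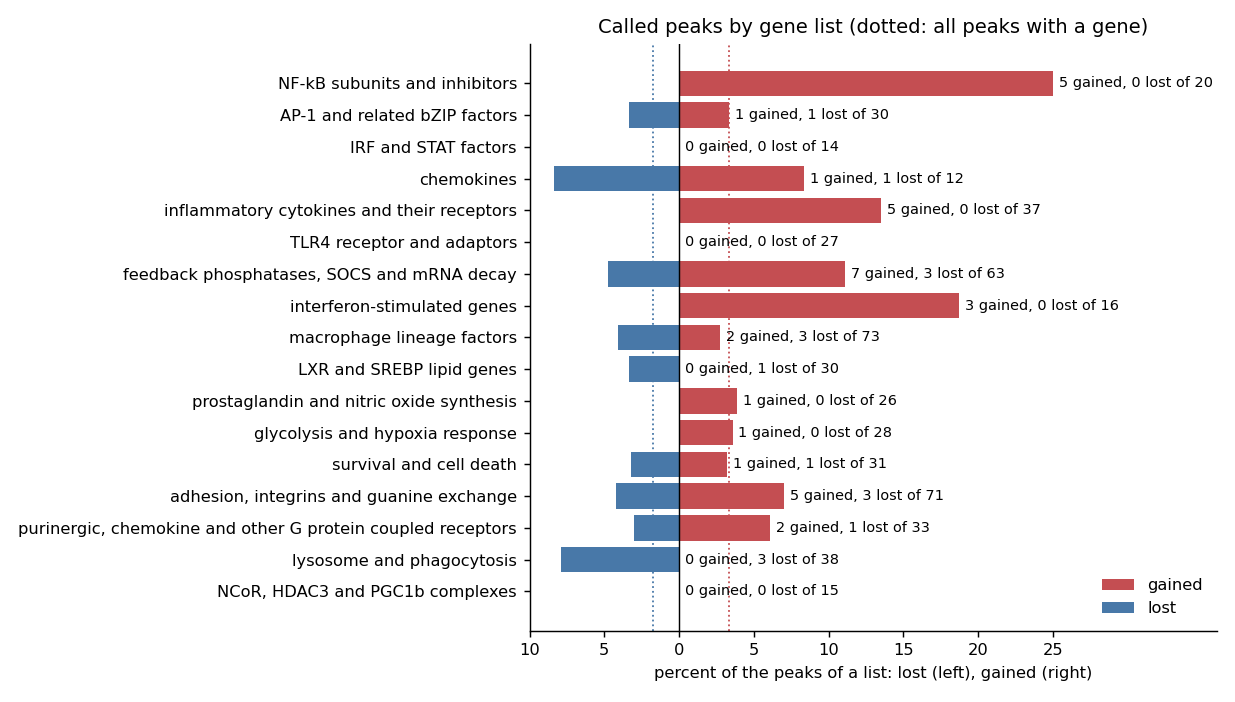
Percent of the peaks of each gene list that were gained (red, right) or lost (blue, left), with the counts beside each bar and dotted lines at the shares over all peaks with a gene (3.32% and 1.74%). NF-kB genes (5 of 20) and interferon-stimulated genes (3 of 16) have the longest gained bars, and most lists rest on a few peaks.

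Summing tags over all peaks of a gene gave 199 genes up (2.91%) and 124 down (1.81%) of 6841, at an adjusted p under 0.05 and a fold change over 1.5 in edgeR. Of the 199, 111 had a single peak, so the sum adds nothing there, and 36 had no called peak of their own. Of the 124 genes down, 63 had a single peak and 37 no called peak. DESeq2 called 13 up (0.190%) and 4 down (0.0585%). The 13 were Nfkb1, Il12a, Mtmr7, Alpk2, Cp, Upp1, Gab1, Hhat, Col6a6, Rgs9, A530046M15Rik, Bcr and Serpina3i, of which 8 are among the 16 genes with 2 or more gained peaks. Without a single library edgeR called 57 up and 40 down (Veh replicate 1), 83 and 53 (Veh replicate 2), 55 and 36 (KLA replicate 1), and 104 and 46 (KLA replicate 2).

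After Nfkb1, the genes up with the smallest adjusted p were Cp, Il12a, Rbbp8 and Mtmr7. Il12a went from 2.33 and 2.48 to 24.6 and 18 over its 2 peaks (3.16 ± 0.46, adjusted p = 8.37e-08). The genes down were led by Timm8a2, which went from 27.9 and 21.5 to 6.42 and 5.14 (-2.05 ± 0.35, adjusted p = 9.97e-06), A830052D11Rik (41.9 and 27.2 to 10.7 and 12, -1.63 ± 0.28), Jun, Bhlhe40, Zfp36l2 and Adcy9, the last 2 with the same adjusted p. Jun fell over its 3 peaks from 67.5 and 54.5 to 26.7 and 27.4 (-1.18 ± 0.21, adjusted p = 1.14e-05), and Bhlhe40 over its 3 from 40.3 and 37.2 to 12.3 and 18 (-1.42 ± 0.26, adjusted p = 2.35e-05). Zfp36l2 fell from 34.9 and 23.1 to 9.62 and 7.71 (-1.71 ± 0.31, adjusted p = 2.79e-05), and Adcy9 from 14.7 and 19 to 2.67 and 3.43 (-2.47 ± 0.45, adjusted p = 2.79e-05), and DESeq2 called neither.

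At the study's example loci Ptgs2, Abca1 and Scd2 the peaks below were not called. The paper gives Abca1 and Scd2 as genes derepressed by NCoR deficiency under vehicle, not as KLA-induced genes. For Ptgs2 it shows RNA-seq and ChIP-seq. Ptgs2, the inducible cyclooxygenase, had 1.55 and 6.61 at Veh and 3.21 and 3.43 at KLA at its promoter peak (-0.27 ± 0.61, adjusted p = 0.876). The value was 1.05 ± 0.93 (adjusted p = 0.66) without Veh replicate 2, so its sign rests on that library. Abca1, a cholesterol exporter and LXR target, stood at 0.776 and 2.48 at Veh and 6.95 and 6.00 at KLA at +1.1 kb (1.99 ± 0.64, adjusted p = 0.0561). Scd2, a fatty acid desaturase, stood at 6.98 and 6.61 at Veh and 9.62 and 8.57 at KLA at -9.4 kb (0.43 ± 0.42, adjusted p = 0.644).

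Sequence matches differed between gained and lost peaks, counted in the central 200 bp of the 9527 peaks with sequence. An NF-kB string was found in 15.0% of gained peaks (Wilson interval 11.5% to 19.3%), in 1 of 168 lost peaks (0.595%, 0.105% to 3.29%) and in 4.89% of all peaks. Over whole peaks it was in 17.8% of gained peaks (14% to 22.4%), 3.57% of lost peaks (1.65% to 7.57%) and 6.22% of all peaks, so the lost share then overlapped that of all peaks. In the central window its share was alike in gained promoters (15.4%) and gained distal peaks (14.9%), beside 3.75% and 6.10% of all peaks of each class. An AP-1 string was found in 30.8% of gained promoters (19.9% to 44.3%) beside 4.61% of all promoters, and in 37.3% of gained distal peaks (31.7% to 43.2%) beside 32.6% of all distal peaks. The lost distal peaks held it in 16.5% (10.6% to 24.9%).

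The PU.1 string was in 38.5% of lost promoters (27.6% to 50.6%) beside 19.8% of all promoters, and in 43.7% of lost and 34% of gained distal peaks beside 43.0% of all distal peaks. The C/EBP string was in 23.1% of gained promoters beside 5.79% of all, and in 8.74% of lost distal peaks beside 16.3% of all distal peaks. The IRF string was rare, in 3.44% of gained and 2.48% of all peaks. These shares describe the windows and were not tested. Median GC was 48.5% in gained, 54% in lost and 56.5% in all peaks, and its part in these shares was not tested.

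The called peaks were looked up in libraries that took no part in the comparison. The peaks of NCoR f/f macrophages came from other libraries, called separately at Veh and at KLA. The libraries behind the KLA set were not analysed here, and only the set is used. Of the gained peaks 62.5% (57.1% to 67.6%) overlapped a peak of the KLA set alone, beside 14.6% of all peaks. For gained promoters the share was 46.2%, beside 7.39% of all promoters, and for gained distal peaks 65.7%, beside 22.2%. Of the lost peaks 27.4% (21.2% to 34.6%) overlapped a peak of the Veh set alone, beside 5.78% of all peaks, and 35.9% of the lost distal peaks did, beside 7.82%. Of the 35 gained peaks of the 16 genes, 24 were in the KLA set alone. In the NCoR f/f Veh libraries the gained peaks had median levels of 1.88 and 1.77 and the lost ones 5.10 and 5.10, beside 5.10 and 5.30 over all peaks.

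In the RGFP966 + KLA libraries the gained peaks had median levels of 8.15 and 8.75 and the lost ones 5.93 and 5.66. Their peaks were merged into the same set. Single loci differed: the Nfkb1 peak at +19 kb stood at 0.988 and 2.57, beside 6.95 and 12.8 at KLA, the peak at +51.2 kb at 7.90 and 8.75, and the Il1f10 peak at +20.6 kb at 2.47 and 4.12, beside 9.09 and 9.42 at KLA. The difference between KLA and RGFP966 + KLA was not tested.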

How the data were processed

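ATAC-seq was analysed for WT BMDMs at Veh and KLA, 2 libraries each. The authors aligned reads with Bowtie2 to mm10, used HOMER for peak calling, filtered peaks by IDR between the best correlated pair of samples and merged the sets of 3 WT conditions, so the peaks tested were partly chosen on these libraries. The deposited values are raw counts of tags per merged peak, not normalized, with at most 3 tags per position. The third WT pair is named RGFP966 in its titles and only KLA in its treatment entry, and it shared only the estimate of the spread.

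All 9698 peaks had 4 or more tags in some library, the minimum set for testing, and were fitted with edgeR 4.0.16 in R 4.3.3 (glmQLFit, glmQLFTest), with total tags in peaks as library size and no covariate. The authors used DESeq2, which was run here (version 1.42.0) as an alternative. Sums per gene and the difference of distal and promoter sums were fitted alike, and the last was called at an adjusted p under 0.05 with no fold threshold. The SE given after ± was computed back from the log2 fold change and the F statistic of edgeR, so it restates the test. Peaks within 2 kb of the nearest TSS in the deposited annotation were promoter peaks, and 69 peaks had no TSS distance. Tests were tested on simulated data. Motifs were counted on the mm10 genome, and host introns were read from its annotation, with pyfaidx 0.9.0.4 and Python 3.11.15. Values from RNA-seq and ChIP-seq were not analysed here, and 1 marker gene and 1 sequence are not reported here.

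Named genes were those with 3 or more, then 2 called peaks (25 genes), those changed in both directions, the 5 called peaks of each class and direction with the smallest adjusted p, up to 4 per gene list, 5 genes per direction of the sums and of the difference, and the example loci. Members and lists were chosen with earlier results of these data known. Alternatives were TMM factors, all tags as library size, loess and GC offsets, DESeq2, other filters, only the 4 libraries, the replicate block, other limits of fold and promoter, and each library left out.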

Additional observations from a re-analysis of the deposited data

How the results depend on the processing

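Depth was low, with a median of 10 to 16 tags per peak and 2 libraries per condition, and its part in the counts was not tested. TMM factors (317 gained, 180 lost), no filter and a fold of 1.5 (321 and 171) left all counts within 1.5 times those reported. With DESeq2, 0 peaks were gained or lost in any class or at any gene with 2 or more, with 570 peaks at an unadjusted p under 0.05 with its own size factors and 588 with total tags, and 13 genes were up and 4 down, or 15 and 5 with total tags. With library sizes from all tags, 189 peaks were gained (23 promoter, 166 distal), 42 promoters were lost, 9 genes had 2 or more gained and 4 had 2 or more lost peaks, and 54 genes were up and 36 down. All of the 9 and the 4 are among the genes reported. A filter of 16 tags left 111 lost peaks, 61 of them distal, and 4 genes with 2 or more lost, and loess offsets gave 160 lost distal peaks. The cause was not tested, except that the filter tested fewer peaks (7683).

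With each library left out in turn, there were 100 to 242 gained and 55 to 102 lost peaks, 14 to 38 gained and 23 to 45 lost promoters, 82 to 204 gained and 32 to 57 lost distal peaks, 2 to 9 genes with 2 or more gained and 0 to 5 with 2 or more lost, 55 to 104 genes up and 36 to 53 down, and 0 to 18 genes with a higher and 0 to 11 with a lower distal change. An arm of 1 library is then assumed to vary like the other groups. Of 122 named peaks, 76, 58, 65 and 40 lost their call without Veh replicate 1, Veh replicate 2, KLA replicate 1 and KLA replicate 2. Without Veh replicate 2 the Ptgs2 promoter peak turned to 1.05, the top of its range of -0.99 to 1.05. DESeq2 called 0 of the 122 named peaks: 118 lost their call and the other 4 were not called in the main fit either. The call was lost by 33 under all tags, 17 under loess offsets, 7 under GC offsets, and 15 with only the 4 libraries.

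Replicate numbers were shared between conditions, but same-numbered libraries did not deviate together (correlations 0.0176, 0.0178 and 0.0232), so the numbers were not taken as a pairing. With the replicate number as a block, 350 peaks were gained and 208 lost, 19 genes had 2 or more gained and 11 had 2 or more lost peaks, and 208 genes were up and 138 down. The difference of distal and promoter change was not run with GC or loess offsets, DESeq2 or the block.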
